A study of Mus musculus with 9 samples.

Results

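The genes followed here were 10 markers of neural and hypothalamic tissue, the tissue that lies beside the developing pituitary gland. They were picked by name from the 55450 genes counted, and comprised 4 transcription factors of the diencephalon (*Rax*, *Nkx2-1*, *Lhx2* and *Vax1*), 4 neuronal genes (*Stmn2*, *Dcx*, *Elavl3* and *Elavl4*), the radial glial gene *Fabp7* and the neuropeptide gene *Avp*. RNA had been sequenced from Rathke’s pouch of 7 *Sox2*Egfp/+ embryos at e13.5, and from the pituitary gland of 2 adult mice at postnatal week 8 after removal of the posterior lobe. *Sox2*Egfp is an allele of the transcription factor gene *Sox2*, and no such allele is named for the adults. Whether the allele alters the dosage of *Sox2* is not stated in the paper and was not tested. All animals had a mixed 129Sv/c57BL6J background, and each library came from a single animal.

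Rathke’s pouch is an outpocketing of oral ectoderm that grows against the floor of the diencephalon, where the infundibulum forms the posterior lobe. *Nkx2-1*, *Rax* and *Lhx2* are needed for the development of the hypothalamus and the infundibulum, and are used as markers of the neural side of this contact. Neurones switch on *Dcx*, *Stmn2* and the neuronal RNA-binding proteins of the Elav family as they differentiate, and several neuronal genes are also active in endocrine cells.

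The embryo libraries held 16738863 to 28537311 read pairs counted on genes (median 24687556), and the adult libraries held 36421545 and 31191117. Expression is given as normalised read counts (CPM), scaled to library size by the trimmed mean of M-values (TMM). The floor, taken as 3 counts in a library, was 0.0963 to 0.220 CPM in the embryos, and 0.0727 and 0.0843 CPM in the adults. Floors cover counting error only, since the reads carried no molecular identifiers. Adult hormone genes reached 144645 and 156214 summed CPM in the adults, against 200 to 886 in the embryos, and of 12 pouch genes 3 were called higher in the embryo, among them *Hesx1* and *Lhx4*, and 3 in the adult, *Pou1f1*, *Tbx19* and *Cga* (median log2 fold change of the list 0.24).

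Embryos 1 and 4 stood apart from the other embryos. Counted pairs made up 59.7% and 62.8% of their read pairs, against 73.9% to 80.0% in the other embryos. Haemoglobin and other erythroid genes took 14.7% and 17.0% of their counted pairs, against 0.778% to 2.08%. Results were therefore also computed without these 2 embryos.

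The filter on low counts, a mean of 5 or more over the libraries, left 19371 genes, of which edgeR called 5001 (25.8%) different between the stages. A call needed both an adjusted p-value under 0.05 and a change of more than 4-fold. Of all tested genes, 2182 (11.3%) were called higher in the embryo and 2819 (14.6%) higher in the adult, and the median log2 fold change of embryo over adult was -0.04. All 10 markers were tested, and 6 were called. *Rax*, *Nkx2-1*, *Lhx2* and *Fabp7* were higher in the embryo, and *Vax1* and *Avp* were higher in the adult. *Avp*, with 0 counts in every embryo, passed the filter only through the adults. None of the 4 neuronal genes was called. The markers thus did not behave as a single group of embryonic genes. In bulk tissue, fewer cells of a type and less RNA per cell cannot be told apart. The same 6 markers were called without embryos 1 and 4.

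**Figure D1:**
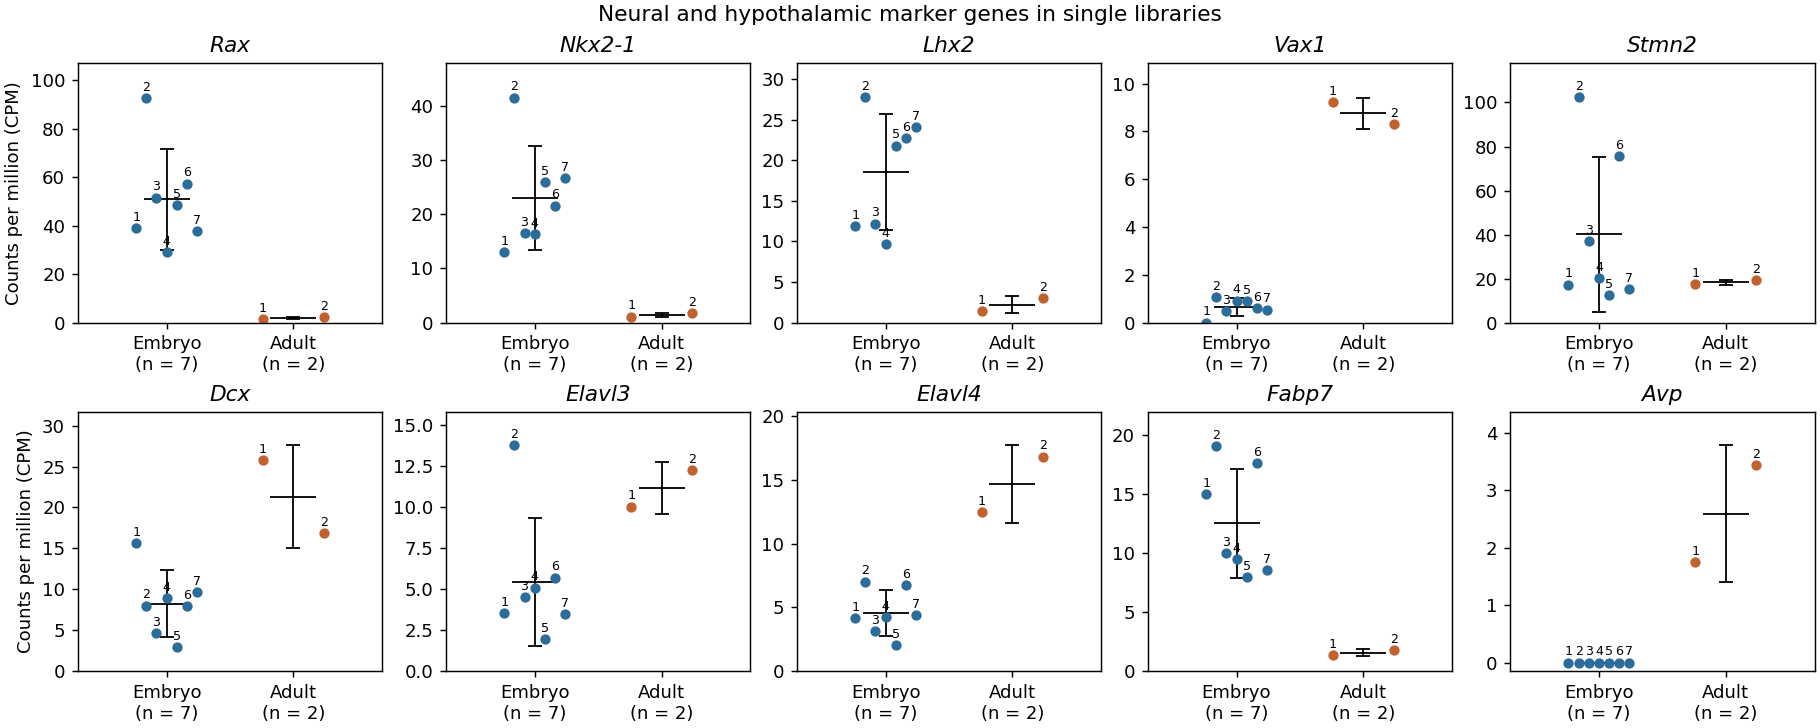
CPM of the 10 markers in each library, with embryos in blue (n = 7), adults in orange (n = 2), library numbers beside the points, and bars for the mean and SD of each group. Each gene has its own vertical scale, and embryo 2 is the highest embryo for 8 genes, with 92.8 CPM for *Rax* and 102 CPM for *Stmn2*.

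*Rax* (ENSMUSG00000024518), a homeobox gene of the eye field and the ventral diencephalon, lies on the minus strand of chromosome 18 at 65928277 to 65939787 (GRCm38). It had 29.2 to 92.8 CPM in the embryos (median 48.4), and 1.48 and 2.11 CPM in the adults. All embryos were above both adults, embryo 2 was highest and embryo 4 lowest. The mean was 50.9 ± 20.8 CPM in the embryo (SD, n = 7) and 1.79 ± 0.445 CPM in the adult (SD, n = 2). Embryo over adult gave a log2 fold change of 4.83 ± 0.51 (SE; adjusted p = 6.80e-06). Without embryos 1 and 4 the log2 fold change was 5.02.

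*Nkx2-1* (ENSMUSG00000001496; chromosome 12, 56531958 to 56536908, minus strand) encodes a homeodomain factor of the ventral forebrain, known from the infundibulum and not from the pouch epithelium. It had 13.0 to 41.6 CPM in the embryos (median 21.6), and 1.09 and 1.71 CPM in the adults. The groups did not overlap, and again embryo 2 was highest, with embryo 1 lowest. The means were 23.1 ± 9.63 and 1.40 ± 0.441 CPM, and the log2 fold change was 4.04 ± 0.53 (SE; adjusted p = 3.82e-05), or 4.26 without embryos 1 and 4.

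*Lhx2* (ENSMUSG00000000247; chromosome 2, 38339281 to 38369733, plus strand) encodes a LIM homeodomain factor of the eye, the forebrain and the infundibulum. It had 9.67 to 27.7 CPM in the embryos (median 21.8), and 1.45 and 2.98 CPM in the adults. The embryos fell into a higher set of 2, 5, 6 and 7 and a lower set of 1, 3 and 4, all above the adults. The log2 fold change was 3.07 ± 0.53 (SE; adjusted p = 3.38e-04), and it was 3.32 without embryos 1 and 4. It was 3.66 without adult 2, which had the higher adult level.

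*Vax1* (ENSMUSG00000006270; chromosome 19, 59166187 to 59170056, minus strand), a homeobox gene of the ventral forebrain and the optic stalk, ran the other way. It had 0 to 1.08 CPM in the embryos (median 0.594), and 9.21 and 8.29 CPM in the adults. Every embryo was below both adults, and embryo 1 had no counts. The means were 0.647 ± 0.362 and 8.75 ± 0.650 CPM, with a log2 fold change of -3.73 ± 0.63 (SE; adjusted p = 2.83e-04), and of -3.56 without embryos 1 and 4. Read pairs on the opposite strand made up 35.1% of those on both strands of *Vax1* in the embryos and 7.66% in the adults, so the embryonic level is uncertain. The log2 fold change was -3.12 with unstranded counts, and -4.60 with a correction for transcript length and GC content.

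**Figure D2:**
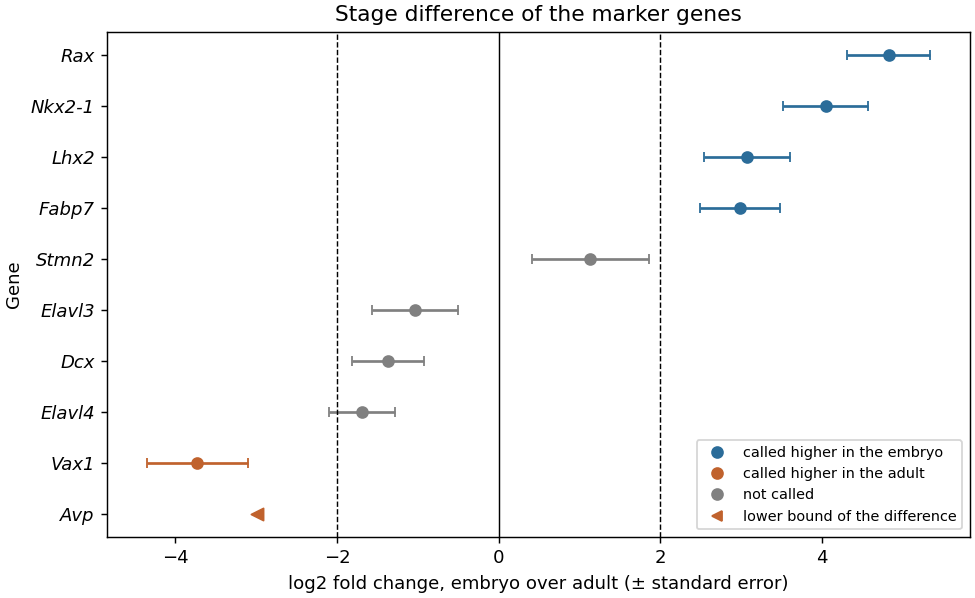
Log2 fold change of embryo (n = 7) over adult (n = 2) for each marker, with standard errors from edgeR and dashed lines at a fold change of 4. Of the 10 markers, 4 are called higher in the embryo and 2 higher in the adult, and the triangle for *Avp* is a lower bound of the difference.

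Per kilobase of transcript, *Rax* was the most abundant of these factors in the embryo at 17.8 ± 7.27 CPM per kb (SD, n = 7), followed by *Nkx2-1* at 8.23 ± 3.43, *Lhx2* at 6.55 ± 2.52 and *Vax1* at 0.620 ± 0.347. The spreads of *Rax* and *Nkx2-1* overlapped, as did those of *Nkx2-1* and *Lhx2*, but *Vax1* lay below all of them. In the adults the order was different, with *Vax1* at 8.38 ± 0.622 CPM per kb (SD, n = 2), and *Lhx2*, *Rax* and *Nkx2-1* at 0.781 ± 0.380, 0.628 ± 0.156 and 0.499 ± 0.157, whose spreads overlapped.

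RefSeq promoters (GRCm38.p6, 250 bases before to 50 after the start) were taken for 8 of the 10 markers, 13 in all. Whether RefSeq also holds promoters of the remaining markers was not established. Those of *Nkx2-1* (chr12:56536859-56537158, minus strand) and *Lhx2* (chr2:38339031-38339330, plus strand) are shown because this pair had the highest r of the markers across the embryos, and that of *Vax1* (chr19:59170348-59170647, minus strand) because it is the factor that was higher in the adult. The *Vax1* window lies around a RefSeq start and wholly upstream of the gene’s GENCODE position given above. Capitals mark the GC box GGGCGG, the motif CCAAT, the motif TATAAA, the E-box CAGCTG and the homeodomain core TAATTA on either strand. The GC box reads CCGCCC when it lies on the other strand, and the second motif reads ATTGG.
Nkx2-1: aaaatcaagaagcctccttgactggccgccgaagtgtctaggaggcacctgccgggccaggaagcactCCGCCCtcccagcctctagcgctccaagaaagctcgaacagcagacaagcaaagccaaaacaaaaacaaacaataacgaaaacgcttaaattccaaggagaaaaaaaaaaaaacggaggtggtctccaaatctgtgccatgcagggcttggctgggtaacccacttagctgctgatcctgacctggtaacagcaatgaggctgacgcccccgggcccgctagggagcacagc
Lhx2: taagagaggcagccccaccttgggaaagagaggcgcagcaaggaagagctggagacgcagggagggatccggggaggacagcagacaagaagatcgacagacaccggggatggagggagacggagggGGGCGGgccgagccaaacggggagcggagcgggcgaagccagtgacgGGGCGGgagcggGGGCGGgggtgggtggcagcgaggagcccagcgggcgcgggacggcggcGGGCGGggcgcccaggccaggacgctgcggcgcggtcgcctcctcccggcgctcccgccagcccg
Vax1: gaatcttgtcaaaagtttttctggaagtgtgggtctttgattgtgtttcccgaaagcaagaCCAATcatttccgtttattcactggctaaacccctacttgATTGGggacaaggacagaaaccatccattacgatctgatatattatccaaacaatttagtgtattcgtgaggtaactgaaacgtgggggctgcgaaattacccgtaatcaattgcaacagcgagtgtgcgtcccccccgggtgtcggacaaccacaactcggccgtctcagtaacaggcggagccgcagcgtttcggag

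The *Lhx2* promoter shown, at the annotated start of the gene, held 34 CG dinucleotides and 4 GC boxes, and the *Nkx2-1* promoter held 12 and 1. A further *Lhx2* promoter within the gene (chr2:38351058-38351357, plus strand) held 29 CG dinucleotides and 0 GC boxes. That of *Vax1* held 17 CG dinucleotides and 2 CCAAT matches. None of the 3 windows held a match to the remaining motifs. Among 32851 promoters of the same length, 35.7% held the GC box, 37.4% the motif CCAAT, 16.3% the E-box, 13.6% the motif TATAAA and 5.29% the homeodomain core, and the median number of CG dinucleotides was 7. No motif overlapped another in these windows, and a match is a description of the letters only.

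The neuronal genes differed from the transcription factors in that none passed both thresholds. *Stmn2* (ENSMUSG00000027500; chromosome 3, 8509360 to 8561606, plus strand), which encodes a microtubule-destabilising protein of growing axons, had 12.6 to 102 CPM in the embryos (median 20.2), and 17.5 and 19.2 CPM in the adults. Embryos 2 and 6, at 102 and 75.8 CPM, were far above both adults, embryos 3 and 4 were above them at 37.1 and 20.2, and embryos 1, 5 and 7 were below them. The highest embryo was 8.09 times the lowest, the widest spread among the 8 markers detected in every embryo. The means were 40.1 ± 35.2 and 18.3 ± 1.20 CPM, and the log2 fold change of 1.13 ± 0.72 (SE; adjusted p = 0.205) was not called. It was 0.70 without embryo 2, and 1.88 with the correction for length and GC content. With the replicate number as a block, *Stmn2* passed the threshold on p alone (1.21, adjusted p = 0.0240), and over all alternatives its adjusted p was 0.0240 to 1.

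*Elavl3* (ENSMUSG00000003410; chromosome 9, 22015005 to 22052023, minus strand), a neuronal RNA-binding protein gene, had 1.96 to 13.8 CPM in the embryos (median 4.51), and 10.0 and 12.3 CPM in the adults. Embryo 2 alone was above both adults, and the other 6 embryos were below both. The log2 fold change of -1.03 ± 0.53 (SE; adjusted p = 0.117) was not called. Without embryo 2 it was -1.46 (adjusted p = 0.00889, with 0.00889 to 1 over all alternatives), still under 4-fold. A second gene, *Gm49318*, overlaps *Elavl3* on the same strand and had 0 counts in every library. Read pairs assigned to both genes are not counted, so the level of *Elavl3* is uncertain.

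*Elavl4* (ENSMUSG00000028546; chromosome 4, 110203722 to 110351909, minus strand), of the same family, had 2.07 to 7.03 CPM in the embryos (median 4.23), and 12.5 and 16.8 CPM in the adults. All embryos were below both adults. *Elavl4* had a log2 fold change of -1.69 ± 0.41 (SE; adjusted p = 0.00325), which passed the threshold on p but not that on the fold change. The pass on p was lost with the correction for length and GC content (-0.57, adjusted p = 0.268), with the replicate number as a block (adjusted p = 0.0658) and without adult 2 (adjusted p = 0.0610). Over all alternatives the adjusted p of *Elavl4* was 4.88e-04 to 1.

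*Dcx* (ENSMUSG00000031285; chromosome X, 143855842 to 143933311, minus strand), which encodes the microtubule-binding protein doublecortin of migrating neurones, had 2.94 to 15.7 CPM in the embryos (median 8.01), and 25.7 and 16.8 CPM in the adults. All embryos were below both adults, though embryo 1 came close to adult 2. The log2 fold change of -1.37 ± 0.45 (SE; adjusted p = 0.0192) passed the threshold on p alone. The direction of *Dcx* turned to 0.65 (adjusted p = 0.215) with the correction for length and GC content, and over all alternatives its adjusted p was 0.00415 to 1. The pass on p was also lost with the block (adjusted p = 0.181) and without adult 1 (adjusted p = 0.199).

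Per kilobase of transcript, *Stmn2* led the neuronal genes in both groups, at 11.7 ± 10.3 CPM per kb in the embryo (SD, n = 7) and 5.37 ± 0.351 in the adult (SD, n = 2). *Elavl4*, *Elavl3* and *Dcx* followed in the embryo at 1.09 ± 0.432, 1.08 ± 0.772 and 0.909 ± 0.448 CPM per kb, and these 3 spreads overlapped. The spread of *Stmn2* reached down to those of *Elavl4* and *Elavl3*, but not to that of *Dcx*. In the adult the same genes stood at 3.54 ± 0.738, 2.22 ± 0.317 and 2.35 ± 0.694 CPM per kb, below the spread of *Stmn2* and overlapping with their neighbours.

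*Fabp7* (ENSMUSG00000019874; chromosome 10, 57784881 to 57788450, plus strand), which encodes the brain fatty acid-binding protein of radial glia, had 7.97 to 19.1 CPM in the embryos (median 9.99), and 1.36 and 1.80 CPM in the adults. All embryos were above both adults, with embryos 2, 6 and 1 highest. The means were 12.6 ± 4.61 and 1.58 ± 0.312 CPM, and the log2 fold change was 2.99 ± 0.49 (SE; adjusted p = 2.43e-04). It was 3.02 without embryos 1 and 4, and 2.26 with the correction for length and GC content. At 14.3 ± 5.24 CPM per kb in the embryo, *Fabp7* was near *Rax* and *Stmn2*, and their spreads overlapped.

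*Avp* (ENSMUSG00000037727; chromosome 2, 130580620 to 130582554, minus strand), which encodes arginine vasopressin, had 0 counts in all 7 embryos, and 1.75 and 3.43 CPM in the adults. Both adults were above the floor of every embryo. Taken against the floor of 3 counts in a library, *Avp* was at least 7.94-fold higher in the adult (adjusted p = 2.30e-04). The gene of the related peptide oxytocin, *Oxt*, had 0 counts in 6 embryos, 0.198 CPM in embryo 6, and 1.58 and 1.69 CPM in the adults (adjusted p = 9.83e-04). No fold is given for *Oxt*, because the mean of the embryos lay under the floor. *Avp* and *Oxt* passed the filter on low counts only through the adults, so their calls are a description only. Vasopressin and oxytocin are made by hypothalamic neurones whose axons end in the posterior lobe, which was removed from the adult glands.

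Across the 7 embryos, embryo 2 stood high for most markers. It was the highest embryo for 8 of the 9 markers with any embryonic counts, and only *Dcx* was highest elsewhere, in embryo 1. Covariation was measured for the 8 markers with a mean of at least 20 counts in the embryos, which leaves out *Vax1* and *Avp* and gives 28 pairs. Pearson’s r of log2 CPM was positive in 25 of 28 pairs (median 0.46). In two-sided exact permutation tests over all orders of the libraries, 8 pairs had a p below 0.05, and 1 pair had an adjusted p below 0.05. Counts and medians of r are given without those of other gene pairs. They do not show whether the markers covary more than genes at large. The labels give no batch within which to repeat the tests.

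That pair was *Stmn2* and *Elavl3*, with r = 0.87 (exact permutation p = 0.00119, adjusted p = 0.0333) and Spearman’s rho = 0.96 (exact permutation p = 0.00278, adjusted p = 0.0778). Both genes were highest in embryo 2, next in embryo 6 and lowest in embryo 5. Without embryos 2 and 6, the farthest from the median of *Stmn2*, r was 0.71, and without embryos 1 and 4 it was 0.91. With each embryo left out in turn, r was 0.76 to 0.93, lowest without embryo 2. With 1 embryo fewer, the lowest possible exact permutation p is 0.00139, or 0.0389 after adjustment where a single pair reaches it. A call lost there does not show whether r rested on single libraries. The exact permutation test gave an adjusted p of 0.0519 without embryo 1, 0.570 without embryo 2, 0.117 without embryo 5, 0.233 without embryo 6 and 0.130 without embryo 7, against 0.0389 without embryo 3 or 4. With the correction for length and GC content it was 0.0967, and over all alternatives it was 0.0111 to 0.570.

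*Nkx2-1* and *Lhx2* had r = 0.88 (exact permutation p = 0.00853, adjusted p = 0.119) and rho = 0.93 (exact permutation p = 0.00675, adjusted p = 0.0944). Both were high in embryos 2, 5, 6 and 7 and low in embryos 1, 3 and 4. The pair did not pass the adjusted threshold. Its r was 0.93 without embryos 1 and 2, the farthest from the median of *Nkx2-1*, 0.88 without embryo 2, and 0.86 without embryos 1 and 4.

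**Figure D3:**
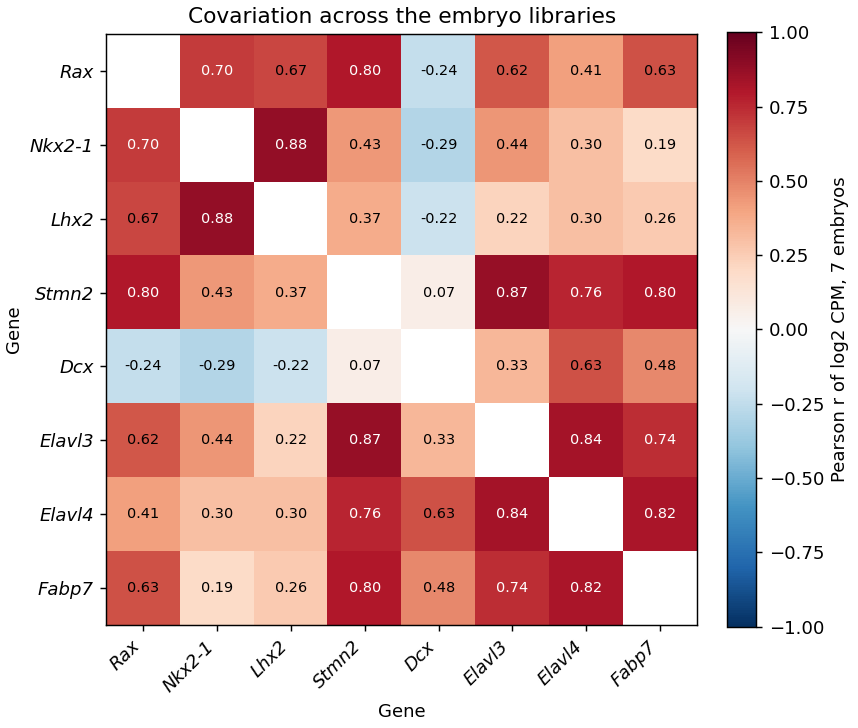
Pearson’s r of log2 CPM between 8 markers across the 7 embryo libraries, with red for positive and blue for negative values. The 25 positive pairs include *Stmn2* and *Elavl3* at 0.87, and the 3 negative pairs join *Dcx* to *Rax*, *Nkx2-1* and *Lhx2* at -0.24, -0.29 and -0.22.

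The other pairs with a raw p below 0.05 joined the neuronal genes to each other, to *Fabp7* and to *Rax*, and none passed the adjusted threshold. *Elavl3* and *Elavl4* had r = 0.84 (exact permutation p = 0.025, adjusted 0.140) and rho = 0.75 (exact permutation p = 0.0663, adjusted 0.341). *Elavl4* and *Fabp7* had r = 0.82 (exact permutation p = 0.0187, adjusted 0.140) and rho = 0.68 (exact permutation p = 0.110, adjusted 0.341). *Fabp7* also had a raw p below 0.05 with *Stmn2* and *Elavl3*. Its r was 0.80 with *Stmn2* (exact permutation p = 0.0387, adjusted 0.155), and rho was 0.89 (exact permutation p = 0.0123, adjusted 0.115). Its r was 0.74 with *Elavl3* (exact permutation p = 0.0310, adjusted 0.144), and rho was 0.86 (exact permutation p = 0.0238, adjusted 0.167). The remaining pairs were those of *Stmn2* with *Rax* and with *Elavl4*. With *Rax* it had r = 0.80 (exact permutation p = 0.0236, adjusted 0.140) and rho = 0.68 (exact permutation p = 0.110, adjusted 0.341). With *Elavl4* it had r = 0.76 (exact permutation p = 0.0484, adjusted 0.169) and the same rho and p as with *Rax*.

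Several of these relations rested on the libraries at the ends of the range. For each pair, the 2 embryos farthest from the median of the first-named gene were left out. Then r fell to 0.17 for *Stmn2* and *Elavl4*, 0.20 for *Stmn2* and *Fabp7*, 0.32 for *Elavl3* and *Fabp7*, and 0.45 for *Elavl3* and *Elavl4*. It was 0.65 for *Elavl4* and *Fabp7* and 0.77 for *Rax* and *Stmn2*. Without embryo 2, 17 of 28 pairs were positive and 0 had a p below 0.05. Without embryos 1 and 4, r was positive in all 28 pairs, given as values with no test over 5 libraries.

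Within groups of markers the median r was 0.70 over the 3 pairs of *Rax*, *Nkx2-1* and *Lhx2*, 0.70 over the 6 pairs of neuronal genes, and 0.41 over the other 19 pairs. Without embryo 2 these medians were 0.52, 0.68 and -0.04, with 11 of the 19 negative. *Dcx* had r = 0.07, 0.33 and 0.63 with *Stmn2*, *Elavl3* and *Elavl4* (exact permutation p = 0.117 to 0.877, adjusted 0.273 to 0.877), and rho = -0.07, 0.04 and 0.36 (exact permutation p = 0.444 to 0.963, adjusted 0.732 to 0.963). Without embryos 2 and 6, the farthest from the median of *Stmn2*, r was -0.06 with *Stmn2*. Without embryos 1 and 5, the farthest from the median of *Dcx*, r was 0.04 and 0.51 with *Elavl3* and *Elavl4*. The 3 values over all embryos rested in part on embryos 1 and 5, the highest and the lowest for *Dcx*. Without embryo 1, r was 0.33, 0.59 and 0.82, and without embryo 5 it was -0.45, -0.27 and 0.17. The 3 pairs of *Dcx* with *Rax*, *Nkx2-1* and *Lhx2* were the only negative ones, and without embryos 1 and 4 they were positive at 0.14, 0.33 and 0.45.

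Among the 11755 other genes with a mean of at least 100 counts in the embryos, those most like each marker were ranked by r over the 7 libraries, as a description only. For *Nkx2-1* they were *Sez6* (0.99), *Ano1* (0.99), *Cspg5* (0.99), *Pecam1* (0.98) and *Plcd1* (0.98). For *Stmn2* they included the serine synthesis gene *Psat1* (0.98) and the related stathmin gene *Stmn4* (0.98). *Stmn4* had 31.3 CPM in embryo 2, 20.4 in embryo 6 and 1.60 to 8.41 in the other 5 embryos. For *Elavl3* the nearest gene was *Ina* (0.97), which encodes the neuronal intermediate filament alpha-internexin. The nearest genes were *Ushbp1* for *Rax* (0.97) and *Stxbp6* for *Lhx2* (0.99). These genes were highest in embryo 2. The nearest genes were *Fat3* for *Dcx* (0.94), *Wnt7b* for *Elavl4* (0.93) and *Olfml1* for *Fabp7* (0.97). *Fat3* was highest in embryo 1, and *Wnt7b* and *Olfml1* in embryo 6.

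Lists of other neural genes are given by their counts and medians, to be read beside the 11.3% and 14.6% of all tested genes called in each direction and the overall median of -0.04. The list of 24 genes of the hypothalamus and infundibulum had 13 of 20 tested genes called higher in the embryo and 0 in the adult (median log2 fold change 4.21, or 3.59 with *Dlx2* and *Gsx1* at their bounds). The count of 13 was 5 to 16 over the alternatives. *Otp*, a factor of neuroendocrine hypothalamic neurones, had 1.54 to 22.1 CPM in the embryos (median 4.36), with 0 counts in adult 1 and 1 count in adult 2. *Fgf8*, a signal from the infundibulum to the pouch, had 0.879 to 12.4 CPM (median 4.73), with 1 count in each adult. Both were called, but no fold is given, because the adults lay under the floor. The fitted values of 5 such genes, with 1 to 3 counts over both adults, enter the median of this list, and those of 3 enter that of the neuropeptide and dopamine genes, 3 that of other brain and eye regions, 2 that of neural progenitors and 1 that of the erythroid genes. *Sox3* and *Sox14* were also called higher in the embryo (log2 fold changes 5.08 ± 0.57 and 4.22 ± 0.89 SE). *Dlx2*, *Gsx1* and *Foxb1* had 0 counts in both adults. *Dlx2*, *Gsx1* and the 5 genes with 1 to 3 adult counts passed the filter on low counts only through the embryos. The count of 13 therefore rests in part on that filter. The most abundant gene in both stages was *Six6*, at 269 ± 79.4 CPM in the embryos and 161 ± 3.09 CPM in the adults. *Six6* and *Six3* are also expressed in the pouch itself, so the sum of the list is not a measure of neural tissue alone. That sum was 375 to 576 CPM in the embryos, and 275 and 279 CPM in the adults.

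Among the 18 genes of hypothalamic neuropeptides and dopamine, 11 were tested, 5 were called higher in the embryo and 2, *Oxt* and *Gal*, higher in the adult (median log2 fold change 2.93). Their sum was 47.8 to 147 CPM in the embryos, and 65.8 and 16.0 CPM in the adults. The count of 5 was 1 to 6 over the alternatives, and 3 without embryo 6. The enkephalin precursor gene *Penk* had 35.9 to 107 CPM in the embryos (median 47.6), and 1.67 and 3.37 CPM in the adults (log2 fold change 4.54 ± 0.55 SE). The galanin gene *Gal* rested on adult 1, at 46.7 CPM against 1.24 in adult 2, and without adult 1 its log2 fold change was -1.21 and not called. The adults differed in sex, and the part of sex in the level of *Gal* was not tested. *Kiss1* and *Pmch* had 0 counts in all libraries, *Hcrt* in the embryos and *Crh* in the adults.

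**Figure D4:**
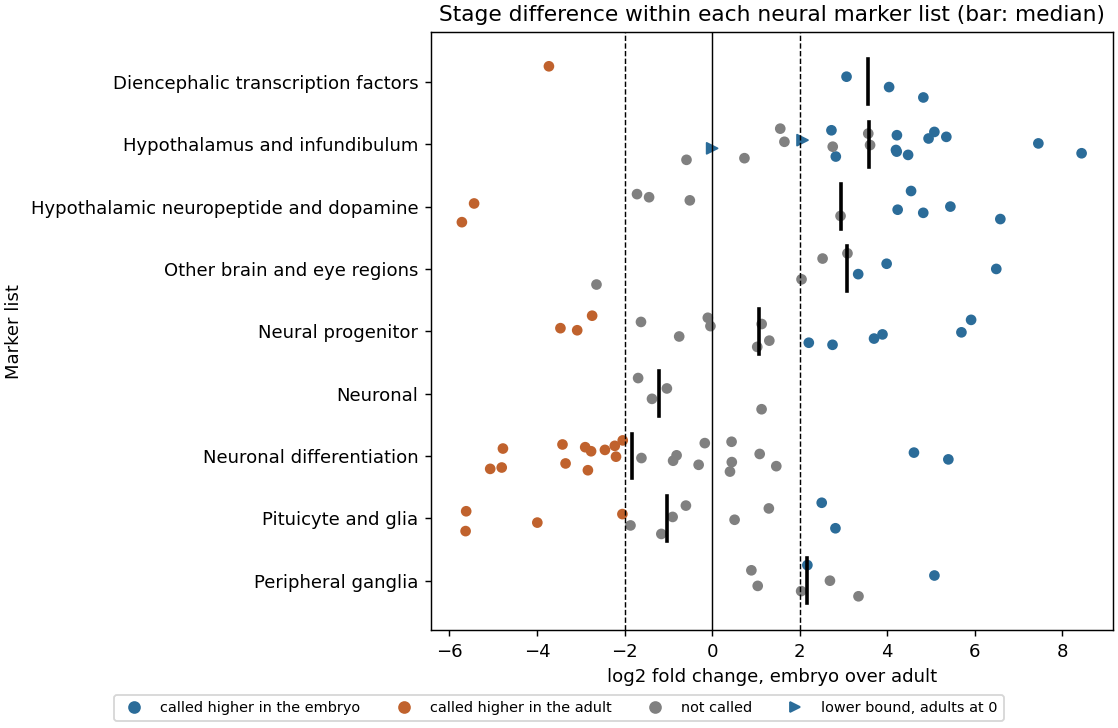
Log2 fold change of embryo (n = 7) over adult (n = 2) for each tested gene of 9 neural lists, with a bar at the median and dashed lines at a fold change of 4. Triangles show *Dlx2* and *Gsx1* at their bounds, genes with 1 to 3 counts over both adults, such as *Otp* and *Fgf8* at the far right, are at their fitted values, and the hypothalamus and infundibulum list lies to the right (median 3.59 with these bounds) while neuronal differentiation lies to the left (median -1.83).

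The 24 neuronal differentiation genes were all tested, and 2 were called higher in the embryo and 12 in the adult (median log2 fold change -1.83). The synaptic vesicle release genes *Snap25* and *Syt1* had 6.05 ± 2.76 and 8.78 ± 2.88 CPM in the embryos, against 204 ± 11.7 and 245 ± 2.34 CPM in the adults (log2 fold changes -5.07 ± 0.37 and -4.81 ± 0.29 SE). These proteins also serve hormone release in endocrine cells. *Myt1l* and *Scrt1* were likewise higher in the adult (-4.78 ± 0.68 and -3.42 ± 0.49). The genes called higher in the embryo were *Stmn4* and *Nhlh1*, the latter named after its values were seen. *Nhlh1* had 1.06 to 2.86 CPM in the embryos (median 2.36), with 0 counts in adult 1 and 6 in adult 2, so no fold is given. *Stmn4* had 9.74 ± 11.7 CPM against 0.231 ± 0.190 CPM (5.40 ± 1.47), and was not called without adult 1 (4.70, adjusted p = 0.0708, with 3.21e-10 to 0.0708 over all alternatives). The most abundant genes were *Nefl* in the embryos and *Map2* in the adults, at 147 ± 71.7 and 290 ± 30.5 CPM. The list summed to 516 to 1060 CPM in the embryos, highest in embryo 2, and to 1925 and 1856 CPM in the adults.

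Of 18 neural progenitor genes, 16 were tested, 6 were called higher in the embryo and 3 in the adult (median log2 fold change 1.08). The intermediate filament gene *Vim* was the most abundant in the embryos at 557 ± 188 CPM, against 42.9 ± 1.5 CPM in the adults (3.70 ± 0.43), and *Sox1* had 14.5 ± 7.93 against 0.980 ± 0.323 CPM (3.89 ± 0.67). *Ptprz1* and *Ednrb* were among those higher in the adult (-3.46 ± 0.52 and -2.74 ± 0.29). Their log2 fold changes ran from -3.79 to -1.78 and from -2.96 to -1.96, and each lost its call in 1 of 22 alternatives. *Vim* is not restricted to neural cells, and the list summed to 687 to 1269 CPM in the embryos, highest in embryo 2, and to 601 and 550 CPM in the adults.

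Among 14 genes of pituicytes and glia, 12 were tested, 2 were called higher in the embryo and 4 in the adult (median log2 fold change -1.03). The gap junction gene *Gja1* had 194 ± 76.5 CPM in the embryos and 27.5 ± 1.80 in the adults (2.82 ± 0.46), and *Cspg4* was also higher in the embryo (2.50 ± 0.53). *Scn7a* and the astroglial gene *Gfap* were higher in the adult (-5.63 ± 0.66 and -3.99 ± 0.57). *Mbp*, which encodes myelin basic protein, was the most abundant of the list in the adults at 53.0 ± 9.88 CPM. The sums were 165 to 349 CPM in the embryos, and 178 and 233 CPM in the adults.

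Genes of other brain and eye regions had 3 of 7 tested genes, from a list of 12, called higher in the embryo and 0 in the adult. Their median log2 fold change of 3.09 is the fitted value of *Pax2*, which had 3 counts in adult 1 and 0 in adult 2 and was not called. *Otx2* made up most of their sum, at 18.6 ± 9.24 against 1.18 ± 0.362 CPM (3.99 ± 0.68), and *En1* had 0 counts in the adults. Without embryo 4, 1 gene of this list was called higher in the adult. Peripheral ganglion genes had 2 of 7 tested, from a list of 10, called higher in the embryo (median 2.18). This count was 1 to 4 over the alternatives. *Tlx3* had 0 counts in the adults. The brain and eye genes summed to 9.74 to 37.1 CPM in the embryos, highest in embryo 2, and to 1.92 and 2.64 CPM in the adults. The ganglion genes summed to 222 to 357 CPM, lowest in embryo 2, and to 136 and 148 CPM.

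The summed levels showed how these lists lay across the embryos. The neuronal markers summed to 40.6, 131, 49.4, 38.4, 19.6, 96.2 and 32.8 CPM in embryos 1 to 7, and to 65.7 and 65.1 CPM in the adults. The transcription factor markers summed to 63.9, 163, 80.7, 56.1, 97.1, 102 and 89.0 CPM in the embryos, and to 13.2 and 15.1 CPM in the adults. Embryo 2 was highest for both sums, but embryo 5 was the lowest for the neuronal genes and embryo 4 for the transcription factors.

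Embryo 2 also stood at an end of the range for the pouch, endothelial and macrophage lists, but not for adult hormones, mesenchyme, cartilage or erythroid genes. Its 11 pouch genes other than *Cga*, of which *Pitx1* was the most abundant in the embryos at 395 ± 138 CPM, summed to 629 CPM, against 1007 to 1562 CPM in the other embryos. Its endothelial genes summed to 541 CPM against 148 to 312 CPM, and its macrophage genes to 230 CPM against 92.7 to 156 CPM. Of 6 adult hormone genes, 5 were called higher in the adult. The part of tissue composition in the covariation of the markers was not tested.

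**Figure D5:**
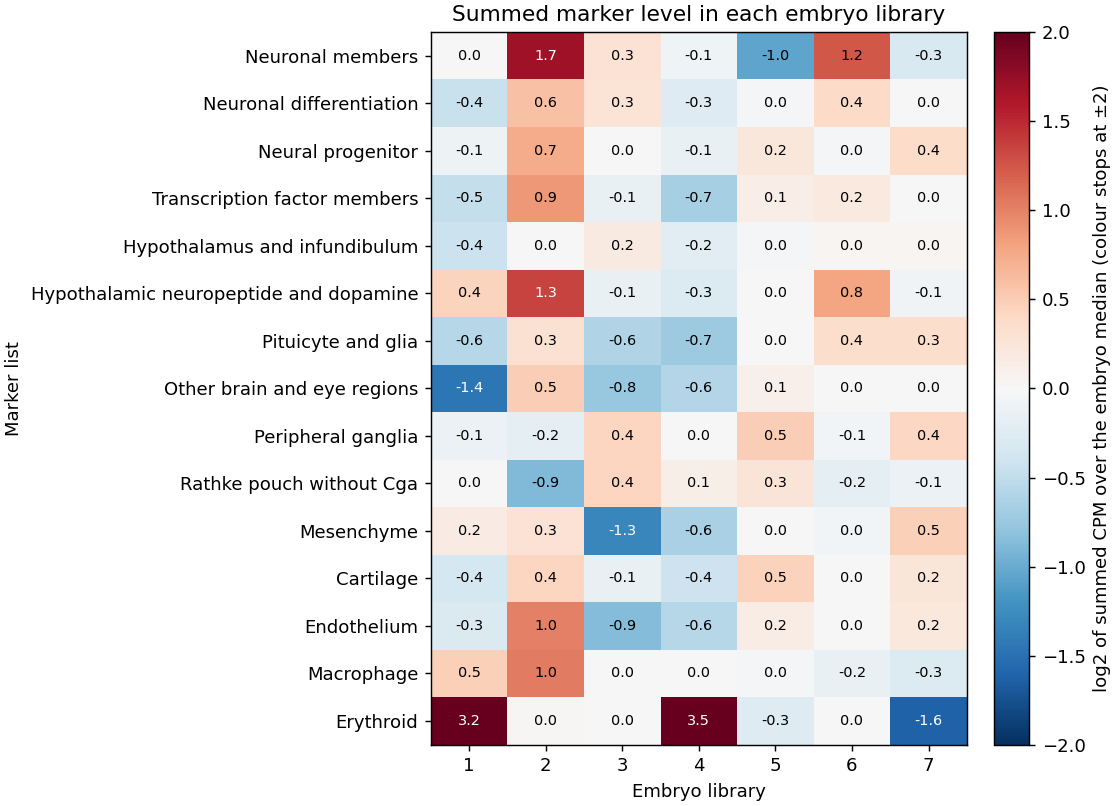
Log2 of the summed CPM of each gene list in each of the 7 embryo libraries, relative to the median embryo, with red above and blue below the median. Embryo 2 is high for the neuronal markers (131 CPM) and low for the pouch genes without *Cga* (629 CPM), and embryos 1 and 4 are high for the erythroid genes.

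Marker genes of tissue around the pouch were compared in the same way. All 10 mesenchyme genes were tested, 7 were called higher in the embryo and 1 in the adult (median log2 fold change 2.30), with summed levels of 1973, 2156, 708, 1120, 1756, 1698 and 2446 CPM in embryos 1 to 7, and 765 and 513 CPM in the adults. *Col3a1* was the most abundant in the embryos at 683 ± 257 CPM. Cartilage genes had 4 of 5 tested, from a list of 6, called higher in the embryo (median 3.05), with sums of 222 to 407 CPM in the embryos, and 36.8 and 25.7 CPM in the adults. Their most abundant gene in the embryos was *Col2a1* at 259 ± 81.3 CPM, and *Matn1* had 0 counts in the adults.

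Endothelial genes had 1 of 6 called higher in the embryo, *Emcn*, which was also the most abundant there at 74.1 ± 28.0 CPM (median of the list 1.72). This count was 0 to 4 over the alternatives, and 2 without embryo 1, 3, 4 or 6. The endothelial sums in the adults were 133 and 82.6 CPM. Macrophage genes had 0 of 5 called higher in the embryo and 1 in the adult (median 0.45), with *C1qb* the most abundant in the embryos at 50.5 ± 17.2 CPM and adult sums of 71.4 and 111 CPM. That adult call was lost without adult 2. Erythroid genes had 8 of 9 called higher in the embryo (median 5.13), led by the embryonic globin gene *Hbb-y*, and *Hbb-bh1* had 0 counts in the adults. Without adult 1 the erythroid count was 3, and without adult 2 it was 4. The part of tissue composition in the stage difference of the 10 markers was not tested, and the log2 fold changes of *Rax*, *Nkx2-1*, *Lhx2* and *Fabp7* were called with the erythroid genes left out of the counts, an alternative chosen after seeing the data.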

How the data were processed

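RNA was measured in 7 embryo and 2 adult libraries. The authors prepared directional poly(A) libraries, trimmed 75 bp read pairs with Trimmomatic 0.39, aligned them to mm10 with STAR 2.7.5b, and deposited raw counts of read pairs per gene (Ensembl release 96). The count on the transcript’s strand was used. Symbols, positions and transcript lengths came from GENCODE M21. Levels per kilobase used the length of the longest annotated transcript of each gene.

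Counts were normalised with TMM in edgeR 4.0.16 (R 4.3.3). A quasi-likelihood model was fitted to genes averaging 5 or more counts, with a term for stage and a common dispersion of 0.190, and p-values were adjusted by Benjamini and Hochberg’s method over all of them. Correlations used log2 CPM with a prior count of 0.5, in Python 3.11.15 with numpy 2.4.6, pandas 2.3.3 and scipy 1.17.1, with figures drawn by matplotlib 3.10.9. The adjustment of their p-values was over the 28 pairs. The fit and its calls were tested on simulated data. The paper gives both sexes among the embryos, and a male and a female as the adults. Sex is not given per library and was not used.

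The markers and lists were chosen with earlier results of these data known. Besides the markers, the text names in each list and direction up to 4 called genes with the largest fold change and a mean count of at least 100, the most abundant gene in each stage, and genes at 0 counts, as well as the genes most correlated with a marker. Some genes that meet this rule are not named. Other named genes were chosen after their values were seen. Alternatives were DESeq2 1.42.0, other normalisations, filters, thresholds and strands, a replicate block, a spline correction (4 degrees of freedom) for transcript length and GC content, and libraries left out. Leaving erythroid genes out of the counts was chosen after seeing the data.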

Additional observations from a re-analysis of the deposited data

Results flagged for a closer look

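In the 7 embryos, the gap between the highest or the lowest library and its nearest neighbour, as a share of the range, was computed for 26 measures. It was past the critical value for 4 of them, and chance gives about 1 in 20. The gap was 0.683 for *Elavl3* and 0.582 for the summed endothelial genes, both high in embryo 2, at 13.8 and 541 CPM. It was 0.592 for the summed adult hormone genes, high in embryo 1 at 886 CPM, and 0.590 for the share of unmapped read pairs, also high in embryo 1 at 10.3%.

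Counts on the opposite strand, which the main comparison did not use, exceeded 3 in at least 1 library for 5 markers. The highest library had 31 such counts for *Vax1* (adult 2), 9 for *Rax* and for *Nkx2-1*, and 5 for *Lhx2* and for *Elavl4*. Annotated genes overlap *Rax*, *Nkx2-1* and *Lhx2* on the opposite strand, and none overlaps *Vax1*.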

How the results depend on the processing

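*Rax* and *Nkx2-1* were called higher in the embryo under all 22 alternatives, with log2 fold changes of 4.53 to 5.09 and 3.73 to 4.39. *Vax1* was called higher in the adult in all 21 that tested it (-4.60 to -3.12), as was *Avp*. The test of the fold change against 4 left 2 markers higher in the embryo and 1744 genes in all (613 higher in the embryo, 1131 in the adult). It ended the calls of *Lhx2* (adjusted p = 0.0507, with 2.49e-10 to 0.0507 over its alternatives) and *Fabp7* (0.0524, with 9.92e-11 to 0.0524), because it tests for a change beyond 4-fold. With at least 10 counts in every library, 0 markers were higher in the adult, as *Vax1* and *Avp* were no longer tested, and 2634 genes were called (1276 and 1358). A fold change above 2 gave 8960 genes (4155 and 4805) and 4 markers higher in the adult, with *Dcx* and *Elavl4* added. Library size alone moved the median log2 fold change of all genes to -0.26.

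The replicate block, which joins animals that share only a number, called 4236 genes and 6 markers. It turned *Nefl* to -0.23 and *Kdr* to 0.10, and *Vax1* was -4.58 under it. The correction for length and GC content turned *Dcx* to 0.65, *Kdr* to 0.23 and *C1qb* to -0.27. With libraries left out in turn, *Col1a2* ran from -0.051 to 0.73, turning without adult 2. None of these genes was called in either form, and the cause was not tested. Among 1277 values for 59 list genes, 1227 kept their direction and their side of the thresholds, 44 lost a call, 1 gained it and 5 changed direction.

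The number of pairs past the adjusted threshold was 0 with Spearman’s rho, 2 with the correction for length and GC content, and 0 to 1 with embryos left out in turn. The 2 pairs were *Elavl4* with *Stmn2* and with *Elavl3*, and without embryo 1 the pair was *Stmn2* and *Fabp7*. *Stmn2* and *Elavl3* lost the call in 7 of the 13 alternatives with a test. With embryos left out in turn their r was 0.76 to 0.93. A single pair passes there only at the lowest possible p, so a lost call does not show a change in r. With a single adult left, that adult is assumed to vary like the embryos. With 2 adults, the adult spread rests on a single difference, that between a male and a female. Stage cannot be told apart from genotype, dissection or the tissue carried along.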
